A study of Mus musculus with 12 samples.

Results

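The genes described here are 10 genes of the tumour necrosis factor (TNF) and NF-kappaB feedback circuit, taken by their symbols from a colon expression table of 21899 genes. They are the ligand gene Tnf, the receptor genes Tnfrsf1a and Tnfrsf1b, the inhibitor and feedback genes Nfkbia, Tnfaip3, Nfkbiz, Bcl3 and Zc3h12a, and the subunit genes Nfkb2 and Relb. All 10 were found, each in 1 row. RNA was sequenced from colon tissue of 12 mice: 6 knockout mice (CKO) whose intestinal epithelial cells lacked PCK1, and 6 littermate controls (WT). Every mouse, controls included, had received 2.5% dextran sulfate sodium (DSS), a polymer that damages the colon lining and brings on colitis, for 7 days. The sources used here give no Cre driver, age or sex, and no mice without DSS were used. Whole tissue was extracted, so a value joins epithelium, immune cells, stroma and muscle.

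TNF binds its receptors on the cell surface and sets off a kinase cascade that releases NF-kappaB dimers into the nucleus. NF-kappaB then switches on inflammatory genes and also the genes of its own restraint, which remove the signal again. In the inflamed gut TNF is made largely by macrophages and T cells, and antibodies against it are used to treat inflammatory bowel disease. A second, non-canonical branch works through the processing of the Nfkb2 product p100 to p52, the partner of RelB.

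Upstream sequences are shown first because several feedback genes are textbook NF-kappaB targets and carry the kappaB motif close to their start. RefSeq promoter windows on GRCm38.p6, from 250 bases before to 50 bases after a transcription start, were matched by symbol for 8 of the 10 genes, all but Nfkbiz and Relb. The 10-letter kappaB consensus was searched on both strands, and overlapping matches were joined. It was present in windows of 4 of these 8 genes, Nfkbia, Tnfaip3, Nfkb2 and Bcl3. Of all 27025 genes with a window, 5.14% held it in at least 1, and of all 32851 windows 4.51% did. The 250 bases before the start are printed 5' to 3' for 3 genes with matches there, and for Tnf, where these letters were not found. Capitals mark the matches, and where a gene has several windows the one with the matches nearest its start is shown. 
Nfkbia, chr12:55492648-55492897, minus strand: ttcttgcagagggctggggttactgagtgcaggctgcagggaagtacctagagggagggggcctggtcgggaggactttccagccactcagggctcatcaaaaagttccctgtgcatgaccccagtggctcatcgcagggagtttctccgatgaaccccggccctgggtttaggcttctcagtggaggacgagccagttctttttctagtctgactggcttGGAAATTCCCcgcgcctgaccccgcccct
Tnfaip3, chr10:19015411-19015660, minus strand: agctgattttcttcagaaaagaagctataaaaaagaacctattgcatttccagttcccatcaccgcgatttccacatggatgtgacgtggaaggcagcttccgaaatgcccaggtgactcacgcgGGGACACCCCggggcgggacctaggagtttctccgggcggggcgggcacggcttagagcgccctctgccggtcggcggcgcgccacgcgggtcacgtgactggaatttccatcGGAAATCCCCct
Nfkb2, chr19:46304487-46304736, plus strand: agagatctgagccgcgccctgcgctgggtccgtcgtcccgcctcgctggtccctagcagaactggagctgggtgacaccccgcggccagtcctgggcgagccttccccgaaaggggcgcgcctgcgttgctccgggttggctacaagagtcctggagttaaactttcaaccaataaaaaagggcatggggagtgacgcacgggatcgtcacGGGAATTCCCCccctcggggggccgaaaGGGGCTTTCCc
Tnf, chr17:35202008-35202257, minus strand: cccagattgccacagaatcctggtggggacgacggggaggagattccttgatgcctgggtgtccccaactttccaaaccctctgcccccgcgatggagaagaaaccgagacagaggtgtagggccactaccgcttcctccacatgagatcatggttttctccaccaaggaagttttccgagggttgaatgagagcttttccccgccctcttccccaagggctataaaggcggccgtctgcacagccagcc

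In Nfkbia the match lay at -29 to -20 from the start, and in Tnfaip3 at -125 to -116 and at -12 to -3. In Nfkb2 a run of joined matches on both strands, GGGAATTCCCC, lay at -39 to -29 and a further match at -11 to -2. The match of Bcl3, GGGAAGTCCC, lay just past the start, at 3 to 12. The other 2 windows of Nfkb2 held matches too, and the other window of Tnfaip3 held none. A match of letters is a description and is not a binding site shown in these mice. Fold changes of the 4 genes with the motif ran from 0.32 (Nfkb2) to 0.57 (Nfkbia) on the log2 scale, knockout minus control. Those of the 4 without a match in their windows ran from 0.50 (Zc3h12a) to 0.88 (Tnf). Sequence outside the windows was not searched, so these genes may hold the motif elsewhere. A link between match and fold change was not tested.

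Some facts of the libraries bear on all that follows. Total counts per library ran from 15348192 to 18211663 in the knockout and from 15881625 to 19138507 in the control. The knockout check held: Pck1 (ENSMUSG00000027513) stood at 2.28 to 7.32 CPM (counts scaled to a common library total, by TMM) in knockout libraries, against 34.5 to 84.7 CPM in control libraries. Over all genes, knockout replicate 2 lay farthest from the other knockouts, at a chi-square per gene of 78.52 to 109.98 for each pair, and control replicate 6 farthest from the other controls, at 74.54 to 140.24. Control replicate 6 alone held 20100 CPM of 6 exocrine pancreas genes in sum, whereas the knockout libraries held 34.7 to 1380 CPM and the other 5 control libraries 73.5 to 2562 CPM. Of 14393 tested genes, 4 were higher and 4 lower at an adjusted p under 0.05 (edgeR quasi-likelihood test, Benjamini-Hochberg), and Pck1 was among the lower. The counts of calls grew most when replicate 4 of either group was left out. Without knockout replicate 4 they were 870 and 402, without control replicate 4 they were 728 and 279, and without control replicate 6 they were 272 and 101.

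Of the 10 genes, 9 were more abundant on average in the knockout colon, by 1.25- to 1.84-fold, and Relb was level. In the edgeR fit over 12 libraries 0 of the 10 passed an adjusted p of 0.05, where 0.0278% of all tested genes were called higher. By sign, 9 of 10 had a log2 fold change above 0, as did 45.1% of all tested genes. At an unadjusted p under 0.05, 9 of 10 were higher and 0 lower. The background is wide here: 13.1% of all tested genes were higher and 9.48% lower at that level. The median log2 fold change was 0.54 over the 10 genes and -0.03 over all tested genes. Their adjusted p values ran from 0.0580 (Tnfrsf1a and Tnfrsf1b) to 0.208 (Zc3h12a) among the 9, and it was 0.899 for Relb. In whole tissue, fewer or more cells of a type and less or more RNA per cell cannot be told apart.

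**Figure D1:**
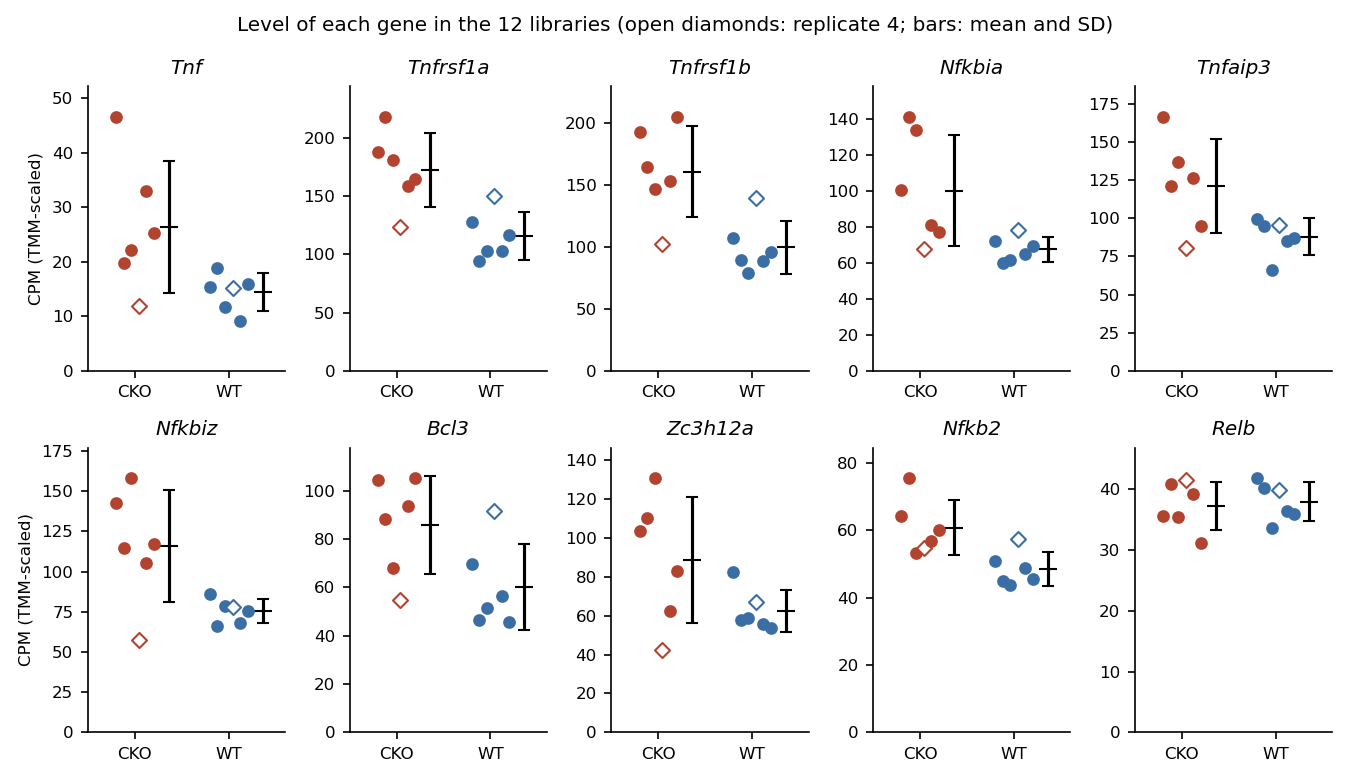
CPM of each of the 10 genes in every library, with 6 CKO libraries left of 6 WT libraries in each panel; open diamonds are replicate 4 of either group and bars give the mean and SD. Knockout replicate 4 is the lowest knockout library in 8 panels, and the 2 groups of Relb lie on top of each other.

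The ligand gene Tnf (ENSMUSG00000024401) had the lowest, median and highest values of 11.8, 23.8 and 46.7 CPM in the knockout libraries, against 9.07, 15.3 and 19.0 CPM in the control libraries. In 5 of 6 knockout mice it was above every control, and knockout replicate 4 fell inside the control range. Means were 26.5 ± 12.1 CPM for the knockout mice, against 14.4 ± 3.49 CPM for the controls (SD, n = 6 each). Its log2 fold change of 0.88 ± 0.28 (SE) had an edgeR adjusted p of 0.0886. The knockout mice were spread widely, with replicate 1 at 46.7 CPM and replicate 5 at 33.0 CPM ahead of the rest. Tnf was also the gene with the fewest reads of the 10, with 149 to 737 counts per library, so that counting error alone came to 8.19% at the lowest count.

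Both receptor genes were the members with the smallest p. Tnfrsf1a (ENSMUSG00000030341) encodes TNFR1, the widely expressed receptor whose death domain can lead to NF-kappaB activation or to cell death. Its lowest, median and highest values were 123, 173 and 218 CPM in the knockout libraries, against 94.6, 110 and 150 CPM in the control libraries. Again 5 of 6 knockout mice lay above every control, and the sixth was replicate 4. The log2 fold change was 0.57 ± 0.14 (SE; edgeR adjusted p = 0.0580).

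Tnfrsf1b (ENSMUSG00000028599) encodes TNFR2, which has no death domain and is found mainly on immune and endothelial cells. It stood at 103, 159 and 206 CPM in the knockout libraries (lowest, median and highest), against 79.1, 93.1 and 139 CPM in the control libraries. The highest control was replicate 4, and it exceeded only knockout replicate 4. The log2 fold change was 0.69 ± 0.17 (SE; edgeR adjusted p = 0.0580). The log2 ratio of Tnfrsf1b to Tnfrsf1a in a library averaged -0.11 ± 0.27 in the knockout and -0.22 ± 0.11 in the control (SD, n = 6 each), a difference within the spread between mice.

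Nfkbia (ENSMUSG00000021025) encodes IkappaB-alpha, which holds NF-kappaB dimers in the cytoplasm, is destroyed on signalling and is then made anew. Its lowest, median and highest values were 67.5, 90.6 and 141 CPM in the knockout libraries, against 59.8, 67.0 and 78.3 CPM in the control libraries. The controls were tight, whereas the knockouts divided: replicates 2 and 3 reached 141 and 134 CPM, and replicates 5 and 6 were at 81.0 and 77.0 CPM, near the highest control. The log2 fold change was 0.57 ± 0.17 (SE; edgeR adjusted p = 0.0820).

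Tnfaip3 (ENSMUSG00000019850) encodes A20, an enzyme that edits ubiquitin chains on signalling proteins such as RIPK1 and so shuts the receptor complex down. It held 80.6, 123 and 167 CPM in the knockout libraries (lowest, median and highest), against 65.9, 90.9 and 99.2 CPM in the control libraries. Of the knockouts 4 lay above every control, replicate 6 lay inside the control range and replicate 4 below 5 of the 6 controls. Its log2 fold change was 0.46 ± 0.16 (SE; edgeR adjusted p = 0.114).

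The nuclear IkappaB proteins differ from IkappaB-alpha in that they act on DNA-bound p50 or p52 dimers. Nfkbiz (ENSMUSG00000035356) encodes IkappaB-zeta, a coactivator of a second wave of inflammatory genes. It stood at 57.6, 116 and 158 CPM in the knockout libraries (lowest, median and highest), against 66.4, 76.8 and 85.8 CPM in the control libraries. Here 5 of 6 knockouts exceeded every control while replicate 4 lay below all 6 of them, and the log2 fold change was 0.62 ± 0.19 (SE; edgeR adjusted p = 0.0785). Bcl3 (ENSMUSG00000053175), which can raise or lower transcription by p50 and p52 dimers, stood at 55.0, 91.0 and 105 CPM in the knockout libraries, against 45.8, 54.0 and 91.8 CPM in the control libraries. Control replicate 4 was the highest control and knockout replicate 4 the lowest knockout. With both left out the groups still overlapped, with the lowest knockout at 67.9 CPM and the highest control at 69.5 CPM. Bcl3 had a log2 fold change of 0.51 ± 0.20 (SE; edgeR adjusted p = 0.149).

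Zc3h12a (ENSMUSG00000042677) encodes Regnase-1, an RNase that degrades inflammatory mRNAs. It stood at 42.4, 93.1 and 131 CPM in the knockout libraries (lowest, median and highest), against 53.5, 58.3 and 82.7 CPM in the control libraries. Knockout replicate 4 was below every control, and control replicate 1 reached the level of knockout replicate 6. With a log2 fold change of 0.50 ± 0.23 (SE) its edgeR adjusted p was 0.208, the highest of the 9.

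The remaining genes encode the partners of the non-canonical branch. Nfkb2 (ENSMUSG00000025225), the gene of p100 and p52, stood at 53.2, 58.5 and 75.5 CPM in the knockout libraries (lowest, median and highest), against 43.7, 47.1 and 57.5 CPM in the control libraries. Only control replicate 4 reached into the knockout range, and 5 of 6 controls lay below every knockout. It had a log2 fold change of 0.32 ± 0.10 (SE; edgeR adjusted p = 0.0835), the smallest of the 9. In GENCODE M21, exons of Nfkb2 share 299 bases with Psd on the opposite strand and 531 with a non-coding gene, and those of Bcl3 share 161 with an antisense gene. The sources used here do not say whether strand was used in counting, so these reads cannot be told apart.

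Relb (ENSMUSG00000002983), the gene of the subunit that pairs with p52, stood at 31.1, 37.4 and 41.6 CPM in the knockout libraries (lowest, median and highest), against 33.6, 38.2 and 41.9 CPM in the control libraries. The groups overlapped fully, and the log2 fold change was -0.03 ± 0.09 (SE; 95% interval -0.22 to 0.17; edgeR adjusted p = 0.899). With library size alone as the scaling, or without knockout replicate 6 or control replicate 1, its sign turned. The log2 ratio of Nfkb2 to Relb within a library averaged 0.70 ± 0.23 in the knockout and 0.35 ± 0.13 in the control (SD, n = 6 each), a difference of 0.35. Its ranges overlapped, at 0.40 to 0.95 in the knockout and 0.16 to 0.53 in the control. The pair was chosen after its values were seen, so this is a description and no test is given.

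**Figure D2:**
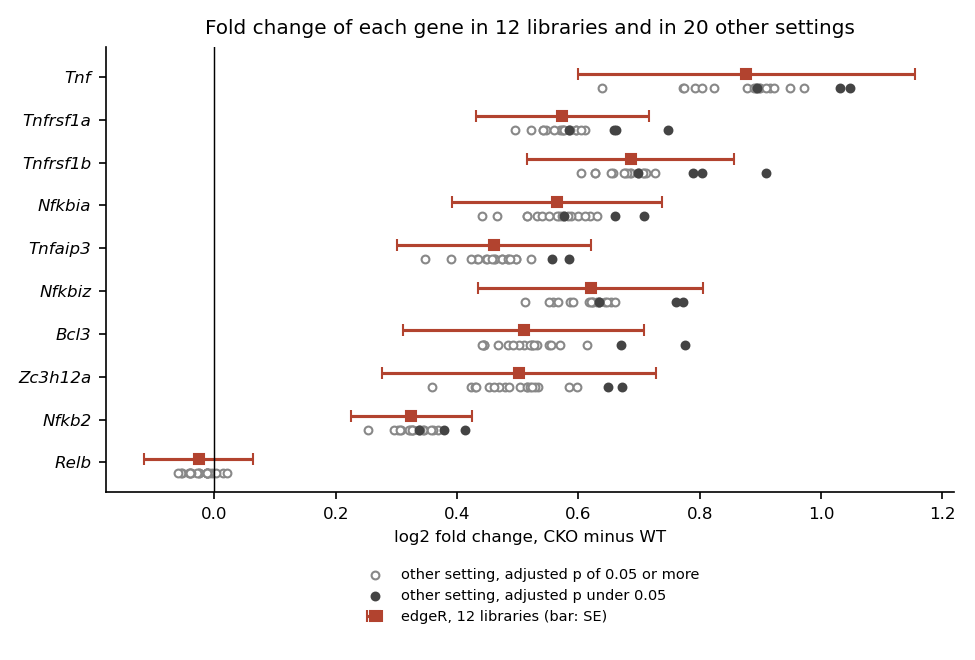
Log2 fold change (CKO minus WT) of each gene, with squares and bars for the edgeR value and SE over 12 libraries and circles for 20 other settings, filled where the adjusted p was under 0.05. All circles of 9 genes lie right of 0, and those of Relb lie between -0.06 and 0.02.

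Whether these genes passed depended on single libraries. Without knockout replicate 4, 7 of the 10 were called higher in edgeR (Tnf, Tnfrsf1a, Tnfrsf1b, Nfkbia, Tnfaip3, Nfkbiz and Zc3h12a), where 6.02% of all tested genes were. Without control replicate 4, 4 were called (Tnfrsf1a, Tnfrsf1b, Bcl3 and Nfkb2), against 5.03% of all tested genes. With both left out, all but Relb passed, with log2 fold changes from 0.41 (Nfkb2) to 1.05 (Tnf), against a background of 8.4%. Leaving out any other single library gave 0 calls among the 10. Without control replicate 6, 1.88% of all tested genes were called higher. In each of the remaining fits of this kind 0 of all tested genes were called higher, so 0 of the 10 tells nothing particular about these genes. DESeq2's Wald test on all 12 libraries called 6 of them higher (Tnf, Tnfrsf1a, Tnfrsf1b, Nfkbia, Nfkbiz and Nfkb2), against 7.66% of all tested genes. In the authors' deposited table the same 6 genes have an adjusted p under 0.05, and the labels name no test for it. Such genes number 1391 in both directions (6.35%), and 1019 of them are higher (4.65%). Those 2 shares are of all 21899 listed genes, not of the tested genes. The libraries were singled out with results of these data known, so these counts describe what the calls rest on.

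The groups overlapped for all 10 genes, while 0.882% of tested genes were higher in every knockout than in any control. Without knockout replicate 4, Tnf, Tnfrsf1a, Tnfrsf1b and Nfkbiz no longer overlapped (3.33% of tested genes were then higher without overlap). Without control replicate 4 the same held for Nfkb2 alone (2.54%). With both left out, these 5 and Nfkbia did not overlap (6.19%).

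By library the 10 genes did not follow one order. Knockout replicate 4 was the lowest knockout for 8 of the 10 genes, while it was so for 17.7% of all tested genes; the exceptions were Nfkb2, where replicate 3 was lowest, and Relb, where replicate 4 was highest. Control replicate 4 was the highest control for 5 genes, against 15.6% of all tested genes. Averaged over the 10 genes, log2 CPM relative to each gene's mean was 0.54, 0.41, 0.36, -0.33, 0.22 and 0.23 in knockout replicates 1 to 6. In control replicates 1 to 6 it was -0.06, -0.30, -0.41, 0.01, -0.38 and -0.29. Thus 5 knockouts were above every control, and replicate 4 of the knockout lay below all but 2 of the controls. Beyond that the genes differed: Tnf peaked in knockout replicates 1 and 5, Nfkbia in replicates 2 and 3, and Zc3h12a and Nfkbiz in replicate 3. The coefficient of variation was greater in the knockout for 9 of the 10 genes, all but Bcl3, at 30.9% in the knockout against 10.2% in the control for Nfkbia, and 29.9% in the knockout against 9.64% in the control for Nfkbiz; the same was true of 67% of all tested genes.

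**Figure D3:**
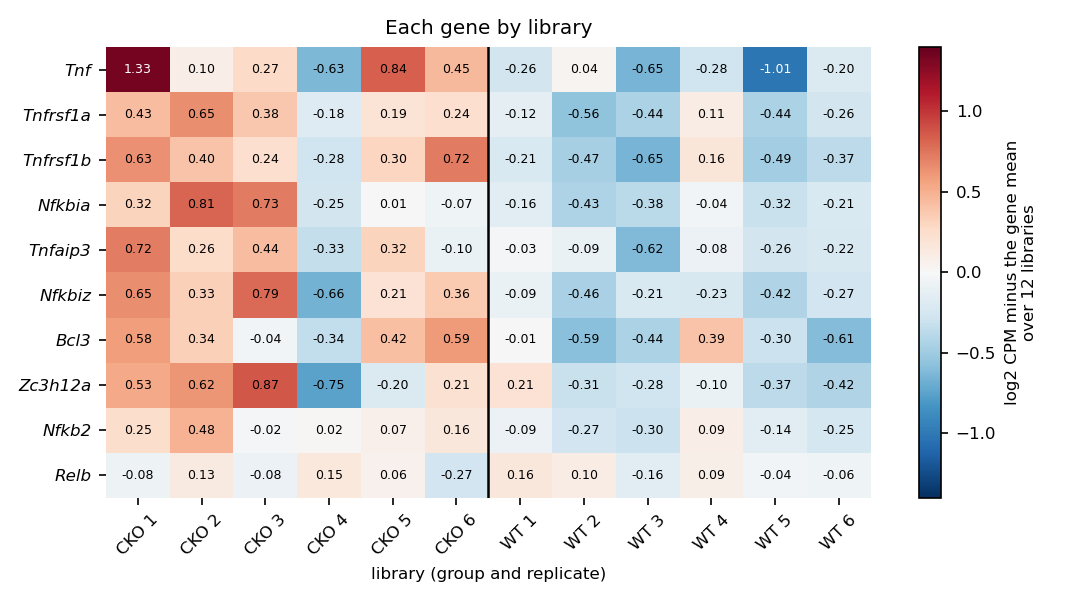
Log2 CPM of each gene minus its mean over 12 libraries, with CKO libraries left of WT libraries. Over the 10 genes CKO 4 has the lowest mean of the CKO columns, -0.33, and WT 4 the highest of the WT columns, 0.01, next to WT 1 at -0.06; the Relb row shows no split by genotype.

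Levels between genes were compared on TPM, which the authors corrected for gene length. In both groups Tnfrsf1a was the most abundant, at 157 ± 33.1 TPM in the knockout and 98.4 ± 19.7 TPM in the control (SD, n = 6 each). Nfkbia followed with 119 ± 35.1 TPM in knockout mice, against 77.6 ± 9.73 TPM in controls. Bcl3 came next, with 90.7 ± 25.4 TPM in knockout mice, against 60.9 ± 19.6 TPM in controls. Tnfrsf1b had 80.4 ± 21.4 TPM in knockout mice, against 48.4 ± 12.8 TPM in controls. Below them Zc3h12a, Nfkbiz and Tnfaip3 lay together, between 57.7 and 60.3 TPM in the knockout and between 37.6 and 41.2 TPM in the control. The subunit genes lay lower, with Nfkb2 at 37.2 ± 6.47 TPM in knockout mice, against 28.6 ± 3.69 TPM in controls, and Relb at 36.3 ± 4.48 TPM in knockout mice, against 35.6 ± 3.85 TPM in controls; Relb stood above Nfkb2 in the control order. Tnf was lowest in both, at 30.6 ± 14.1 TPM in the knockout and 15.9 ± 4.02 TPM in the control. Neighbours in this order mostly did not differ beyond their spread: the ranges of mean ± SD were separate only between Tnfaip3 and Nfkb2 in the knockout and between Nfkb2 and Tnf in the control.

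The wider pathway was described with 57 other genes, of which 55 were tested and Lta and Cd40lg held too few reads. In edgeR 0 of the 55 passed an adjusted p of 0.05, while 18 were higher and 1 lower at an unadjusted p under 0.05, against 13.1% and 9.48% of all tested genes. Their median log2 fold change was 0.14, with 34 of 55 above 0. Over all tested genes the median was -0.03, with 45.1% above 0. Without knockout replicate 4, 7 of the pathway genes were called higher, where 6.02% of all tested genes were. Without control replicate 4 it was 8, against 5.03%, and with both libraries of number 4 left out it was 14, against 8.4%. Without control replicate 6 it was 1, which is near the 1.88% of all tested genes.

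Among genes that handle TNF itself, Adam17, the protease that sheds it from the cell surface, had a log2 fold change of 0.29 ± 0.10 (SE), and Rhbdf2, which brings that protease to the surface, 0.41 ± 0.13. In the receptor complex 2 of 13 genes (15.4%) were higher at an unadjusted p under 0.05, near the 13.1% of all tested genes. They were Traf1 (0.55 ± 0.24) and the kinase gene Ripk1 (0.15 ± 0.07), and the median of the 13 genes, 0.01, was close to 0. Of the kinases upstream of NF-kappaB, Map3k14 encodes NIK, which drives the non-canonical branch. It averaged 13.9 ± 1.72 CPM in knockout mice, against 10.8 ± 1.38 CPM in controls (SD, n = 6 each). On CPM the groups just missed each other, at 12.28 in knockout replicate 4 and 12.17 in control replicate 4. Of all tested genes 0.882% were higher without overlap. On TPM the groups overlapped, at 5.335 in knockout replicate 4 and 5.392 in control replicate 4. Ikbkb, Chuk, Ikbkg and Traf3 had an unadjusted p above 0.05. Among the subunits Nfkb1, the gene of p105 and p50, was at 0.25 ± 0.08, with Rela at 0.17 ± 0.10 and Rel at 0.33 ± 0.20. None of these passed after adjustment: the smallest edgeR adjusted p was 0.0835, for Rhbdf2.

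None of the other inhibitor genes passed after adjustment. Nfkbie, the gene of IkappaB-epsilon, averaged 18.3 ± 5.71 CPM in knockout mice, against 10.4 ± 3.13 CPM in controls (SD, n = 6 each), a log2 fold change of 0.82 ± 0.23 (SE; edgeR adjusted p = 0.0707). Nfkbib stood at 0.19 ± 0.08. Of 9 genes of ubiquitin editing, 3 were higher at an unadjusted p under 0.05, where 13.1% of all tested genes were. They were Tnip1 (0.34 ± 0.10) and Tnip2 (0.34 ± 0.12), which encode partners of A20, and the deubiquitinase gene Otud7b (0.14 ± 0.06). The median log2 fold change of the 9 was -0.02, with 4 of them above 0.

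The mRNA decay genes held the smallest p of the wider pathway. Zfp36l1, like its relative Zfp36, encodes a protein that binds AU-rich mRNAs and leads them to decay. It averaged 152 ± 25.7 CPM in knockout mice, against 95.4 ± 14.9 CPM in controls (SD, n = 6 each). The groups did not overlap, with the lowest knockout at 119 CPM and the highest control at 117 CPM. Of all tested genes 0.882% were higher without overlap. Zfp36l1 had a log2 fold change of 0.67 ± 0.13 (SE; edgeR adjusted p = 0.0512). Zfp36, whose product destabilises Tnf mRNA in mice, was at 0.54 ± 0.13 (edgeR adjusted p = 0.0559). With DESeq2's size factors Zfp36l1 passed (0.229% of all tested genes were called higher there), and with library size alone both did (1.6%). Zfp36l2 (-0.13 ± 0.09), Rc3h1 (-0.04 ± 0.17) and Rc3h2 (-0.08 ± 0.18) were below 0 and did not reach an unadjusted p of 0.05. Thus 2 of the 5 mRNA decay genes were higher at that level, where 13.1% of all tested genes were. The median log2 fold change of the 5 was -0.04.

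In the non-canonical group, Tnfsf11, the gene of the cytokine RANKL, averaged 6.18 ± 2.80 CPM in knockout mice, against 1.99 ± 1.32 CPM in controls (SD, n = 6 each), a log2 fold change of 1.63 ± 0.42 (SE; edgeR adjusted p = 0.0615). Tnfsf14 (0.92 ± 0.43) and Tnfsf12 (0.47 ± 0.18) had an unadjusted p under 0.05 as well. These were 3 of the 9 tested genes of the group, where 13.1% of all tested genes were higher at that level. Of the 9 genes 7 had a log2 fold change above 0, as did 45.1% of all tested genes. In the cell death branch Ripk3, the kinase of necroptosis, was at 0.54 ± 0.19 and Cflar, an inhibitor of caspase-8, at 0.32 ± 0.14. Fadd, the adaptor that recruits caspase-8, was the 1 lower gene of the 55, at -0.34 ± 0.13 (edgeR adjusted p = 0.135). Exons of Adam17, Ripk1, Map3k14, Nfkbib, Zfp36, Zfp36l1, Tnfsf12 and Fadd overlap another annotated gene, so reads there may belong to either.

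**Figure D4:**
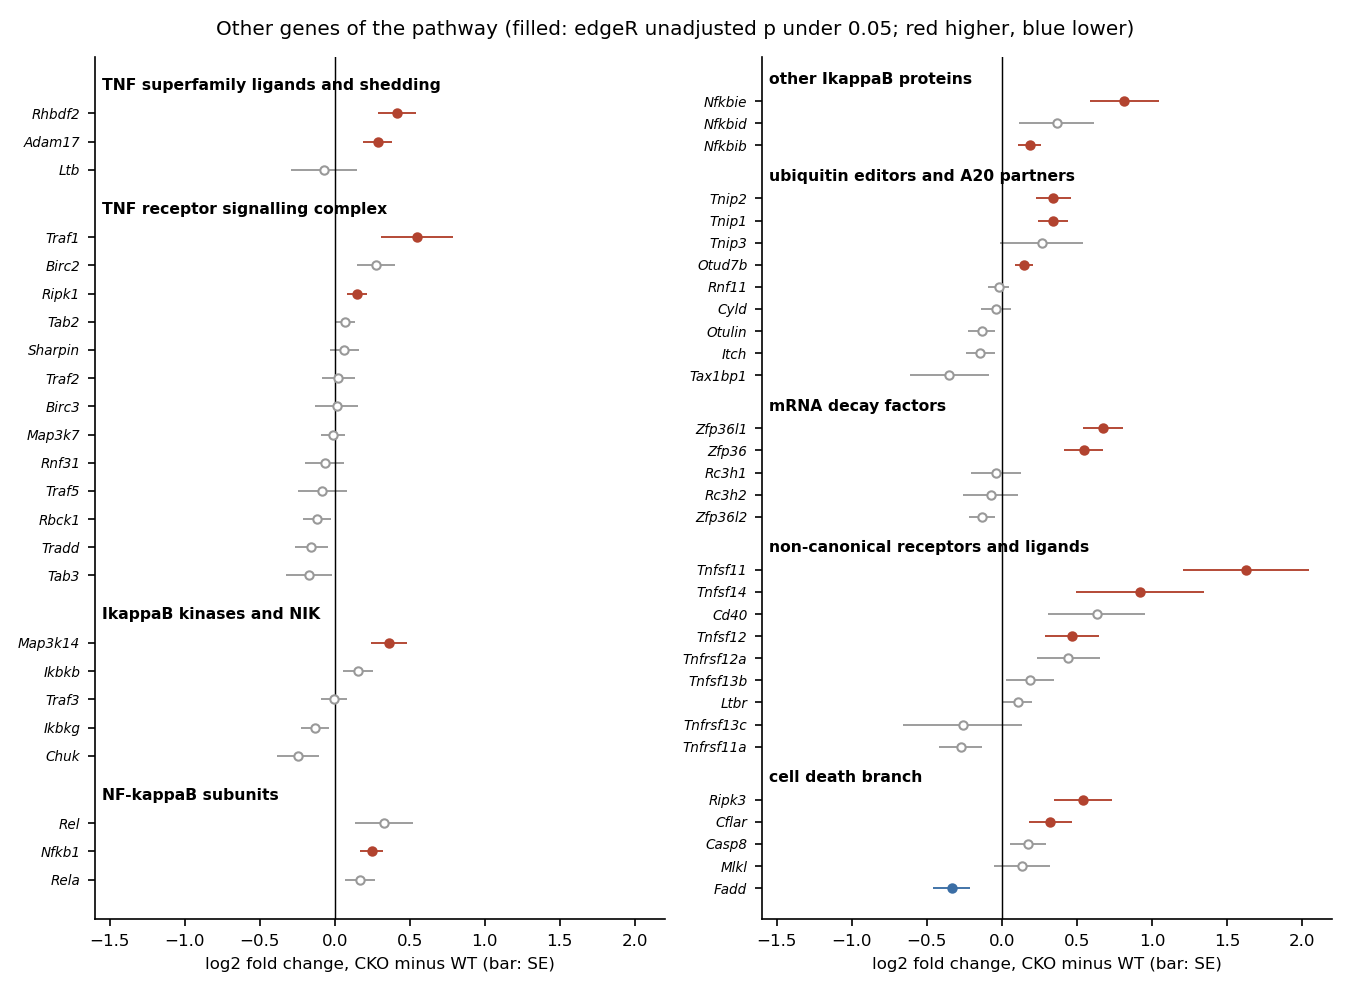
Log2 fold change (CKO minus WT) with its SE for the 55 tested genes of the wider pathway in 9 groups; filled points had an edgeR unadjusted p under 0.05, 18 higher (red) and 1 lower (blue, Fadd). None passed after adjustment over all tested genes.

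Genes most like Tnf over the 12 libraries were found by the root mean square difference of centred log2 CPM among 13908 genes with a mean of at least 1 CPM. The nearest were Ccrl2 (0.34), Lrrk2 (0.35), Trim15 (0.35), Hdac9 (0.36) and Cd274 (0.37), where the values of Tnf themselves had a root mean square of 0.63. Among the 10 genes Tnfaip3 (0.39) and Tnfrsf1b (0.39) lay nearest to Tnf and Relb (0.67) farthest. For the mean of the 10 genes, with a root mean square of 0.33, the nearest were Zfp36 (0.07), Junb (0.13), Myd88 (0.13), Spidr (0.13) and Litaf (0.13).

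Markers of other cell types are given here by list, and in edgeR 0 of them passed an adjusted p of 0.05. The counts that follow are therefore at an unadjusted p under 0.05, where 13.1% of all tested genes were higher and 9.48% lower. Of 8 neutrophil markers 6 were higher, and their summed level ran from 255 to 1330 CPM in knockout libraries, against 128 to 571 CPM in control libraries. The highest control was replicate 4, at 571 CPM, while knockout replicate 4 held 263 CPM. Of 8 monocyte and macrophage markers 4 were higher, with sums of 1020 to 1900 CPM in knockout libraries, against 745 to 1320 CPM in control libraries; knockout replicate 4 was the lowest knockout and control replicate 4 the highest control. Neutrophil sums were 679.8, 1235 and 1330 CPM in knockout replicates 1 to 3, the libraries in which Zc3h12a and Nfkbia were highest as well, and 255 to 274 CPM in replicates 4 to 6. Tnf was highest in knockout replicates 1 and 5, and replicate 5 had the lowest neutrophil sum.

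Among stromal markers, fibroblast markers (6 of 8 higher) summed to 3840 to 9200 CPM in knockout libraries, against 2320 to 4720 CPM in control libraries. Knockout replicate 4 was the lowest knockout, and control replicate 4 held 4330 CPM, below control replicate 6 at 4720 CPM. Endothelial markers (5 of 6 higher) summed to 307 to 630 CPM in knockout libraries, against 214 to 325 CPM in control libraries. Here too knockout replicate 4 was the lowest knockout, and control replicates 4 and 6 held 323 and 325 CPM. Epithelial markers (5 of 8 lower) summed to 11600 to 16100 CPM in knockout libraries, against 12500 to 17800 CPM in control libraries, with knockout replicate 4 the highest knockout and control replicate 4 the lowest control. Lymphocyte markers (1 of 8 lower) summed to 647 to 1150 CPM in knockout libraries, against 586 to 1420 CPM in control libraries. For them replicate 4 was at neither end of either group. Smooth muscle markers (2 of 6 lower) summed to 1750 to 2870 CPM in knockout libraries, against 1800 to 4120 CPM in control libraries. As with the epithelial markers, knockout replicate 4 was the highest knockout and control replicate 4 the lowest control. Exocrine pancreas markers (1 of 6 lower) summed to 34.7 to 1380 CPM in knockout libraries, against 73.5 to 20100 CPM in control libraries. Of all markers only Ngp, a neutrophil granule gene, was at 0 in any library. The part of these cell types in the values of the 10 genes was not tested.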

How the data were processed

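Colon RNA of 6 knockout and 6 littermate control mice was used, with groups and replicate numbers from the labels. The authors deposited 1 table for all libraries. Per the file headers it holds whole-number read counts, TPM per library with a mean TPM per group, and for each gene the authors' log2 fold change, p-value and FDR. The log2 fold change equals that of the mean TPM values, and the labels name no test. Per the labels' protocols, Trizol was used for RNA and the SMARTER mRNA-Seq kit for libraries. The submitters' processing notes name GRCm 38, mm 10 and mm 39 without roles, so gene coordinates are not printed; the sources used here do not name the aligner, counter or strand setting. The table held 0 columns of other samples.

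Counts were tested in R 4.3.3 with edgeR 4.0.16: filterByExpr (minimum count 10, total 15), TMM, and the quasi-likelihood F test of knockout minus control over 12 libraries with no covariate, Benjamini-Hochberg adjusted over 14393 genes, threshold 0.05. SEs come from the fold change and F. Log2 CPM used a prior count of 2. Alternatives were other scalings and filters, DESeq2 1.42.0, limma 3.58.1 voom, the replicate number as a block, and libraries left out. Procedures were tested on simulated data. The 10 genes, the gene lists and the alternatives were chosen with earlier results of these data known. Genes of the wider pathway were named by rule: up to 4 per list with an unadjusted p under 0.05. Ikbkb, Chuk, Ikbkg, Traf3, Rela, Rel, Zfp36l2, Rc3h1 and Rc3h2 and the ratios between the 10 genes were added after their values were seen. Libraries held 15348192 to 19138507 counts and the 10 genes 149 to 3820 counts each, at which counting error alone is 8.19% to 1.62%. The interval of a fold change uses its SE and 13.4 degrees of freedom. Each p-value sets the difference between the groups against the spread between these mice, and takes the 12 mice as independent. Nothing in the labels says how the mice were sampled beyond littermates, so that could not be checked. No 2 libraries agreed within counting noise, with a lowest chi-square per gene of 19.2.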

Additional observations from a re-analysis of the deposited data

How the results depend on the processing

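The 9 higher genes kept their direction under all 20 other settings; Relb reversed to 0.015 with library size only, to 0.0211 without knockout replicate 6 and to 0.0034 without control replicate 1, and ran from -0.0592 to 0.0211 with 1 library left out. Over all tested genes, 33 higher and 19 lower genes were called with DESeq2's size factors, 230 and 45 with library size only, 1103 and 429 in DESeq2's test, 30 and 19 in limma voom, and 1209 and 702 without both libraries of number 4, in place of 4 and 4. With each library left out in turn, 0 to 870 higher and 2 to 402 lower genes were called. Of the 10 genes 0 to 7 were called with 1 library left out, 6 in DESeq2's test and 9 without both libraries of number 4. At an unadjusted p under 0.05, 7 to 9 of them were higher with 1 library left out. Of the wider pathway 0 to 8 were called with 1 library left out. With DESeq2's size factors 1 was called higher (0.229% of all tested genes were), and with library size only 2 were (1.6%). In DESeq2's test 9 were called higher (7.66%), and without both libraries of number 4 it was 14 (8.4%). Apart from the libraries' own removal the cause was not tested. With the replicate number as a block, 0 higher and 1 lower genes were called and 0 of the 10; same-numbered libraries had correlations of deviations from -0.496 to 0.078, so the numbers were not taken as pairing. By the mean of log2(TPM + 1), 2 genes of the knockout order (Zc3h12a and Nfkbiz) changed places, and by the median of TPM 3 of the control order (Zc3h12a, Tnfaip3 and Nfkbiz). The difference in the log2 ratio of Nfkb2 to Relb ran from 0.30 to 0.45 over 14 other settings; the ratios were chosen after seeing the data. The difference in the log2 ratio of Bcl3 to Nfkbiz, -0.04, reversed to 0.121 without knockout replicate 3, to 0.0783 without control replicate 4 and to 0.0104 without both libraries of number 4, and ran from -0.114 to 0.121 with 1 library left out. Of 20 groups of 6 values of the 10 genes, 0 held a library beyond the critical gap for outliers. That gap was judged gene by gene on 6 values, so it cannot show a library shifted moderately over many genes. It therefore does not decide whether replicate 4 of either group is unusual.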
